A study of Mus musculus with 17 samples.

Results

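The genes described here are 10 members of the mammalian circadian clock: the period genes Per1, Per2 and Per3, the cryptochrome genes Cry1 and Cry2, the REV-ERB genes Nr1d1 and Nr1d2, the transcription factor genes Dbp and Tef, and Bhlhe40. They were taken by symbol from the 31091 gene identifiers of the count table, and each symbol matched 1 identifier. The family was chosen by a measured value, the rise of Per1 in type 2 conventional dendritic cells (cDC2s) with debris of necroptotic over debris of apoptotic tumor cells, and the other 9 came with it as genes of the clock. In that comparison, all values of the 10 genes are therefore given as a description and without a test.

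Conventional dendritic cells take up dead cells and present their antigens to T cells, and the study asked how type 1 cells (cDC1s) and cDC2s respond to tumor cells that died by apoptosis or by necroptosis. CD11c+ cells were purified from the pooled spleens of female C57BL/6JRj mice that carried a B16 melanoma secreting FLT3L, a growth factor that expands dendritic cells. They were cultured for 6 h with 1 of 3 media, and cDC1s (XCR1+ CD8α+) and cDC2s (SIRPα+ CD11b+) were then sorted. The culture protocol to which the paper's sequencing methods refer adds the cytokine GM-CSF to help the cells survive. WT medium came from live wild-type TC-1 cells, a mouse lung epithelial tumor line. BimS medium held the debris of TC-1-iBimS cells, in which overexpressed BimS causes apoptosis, and RIPK3 medium held the debris of TC-1-iRIPK3 cells, in which an oligomerizing RIPK3 causes necroptosis. Both transgenes are switched on by cumate, which the WT cells had received as well, so all 3 media contained the inducer. There were 3 samples in each group, except for cDC2s with RIPK3 debris, of which there were 2, giving 17 samples in 6 groups. All cells came from hosts with a tumor, and each form of death was represented by 1 engineered subline, so the form of death and the subline cannot be told apart.

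In the clock, the proteins CLOCK and BMAL1 bind E-boxes and switch on the Per and Cry genes, whose products enter the nucleus and repress CLOCK and BMAL1 in turn. REV-ERB proteins repress Bmal1, DBP and TEF activate genes through D-boxes, and BHLHE40 competes at E-boxes and represses. Per1 is also an early-response gene that cAMP signaling through CREB and glucocorticoids can switch on quickly, and BHLHE40 is known in immune cells as a regulator of cytokine production. Bulk RNA cannot tell fewer cells of a type from less RNA per cell.

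The libraries held 16095159 to 21645289 counts on genes. The sorted cells carried the markers of their labels. The 8 cDC1 markers summed to 1409 to 1736 CPM (counts scaled to library size, with TMM factors) in cDC1s and to 98.97 to 131.9 in cDC2s, and the 7 cDC2 markers to 286.6 to 374.2 CPM in cDC2s and to 2.53 to 4.04 in cDC1s. The 5 plasmacytoid dendritic cell markers summed to 54.3 to 66.0 CPM in cDC1s and to 172.6 to 216.5 in cDC2s. Most of this sum was Tcf4. With WT medium, BimS and RIPK3 debris its means were 43.0, 36.5 and 36.6 CPM in cDC1s and 177.5, 179.2 and 157.6 in cDC2s. Tcf4 fell with both kinds of debris in cDC1s. Bst2 had means of 15.0 to 21.8 CPM and fell with RIPK3 debris in cDC2s. Siglech and Ly6d had means of at most 0.565 CPM, and Ccr9 at most 2.235 in cDC1s and 0.705 in cDC2s. B cell markers summed to at most 1.49 CPM and T and NK cell markers to at most 1.23 CPM in any sample. Of the 7 macrophage markers, Spic rose with debris, from a mean of 7.84 CPM with WT medium to 92.7 with BimS and 58.5 with RIPK3 debris in cDC1s, and from 6.78 to 48.0 and 46.6 CPM in cDC2s. The other 6 did not pass the test of debris against WT medium in either cell type (Mertk was not tested in cDC1s). Their means were at most 1.24 CPM in cDC1s, where Adgre1, Mertk, Vcam1, Cd5l, C1qa and C1qb all had lower means with BimS debris than with WT medium, and at most 4.00 CPM in cDC2s. The summed level of the 7 followed Spic, with 9.96 to 15.1 CPM with WT medium, 78.4 to 108.4 with BimS and 52.8 to 69.4 with RIPK3 debris in cDC1s, and 8.93 to 17.97, 47.3 to 58.3 and 48.0 to 59.8 in cDC2s. The 15 markers of adherent tumor cells summed to 12.2 to 16.9 CPM in cDC1s, where Cald1 rose with RIPK3 debris at means of 0.161 and 0.570 CPM, and in cDC2s to 80.4 to 94.8 CPM with WT medium and to 155.7 to 199.2 with debris. In cDC2s this sum followed Thbs1 (means of 49.2, 144.1 and 138.0 CPM), which rose, while Cdh1 had means of 32.7, 25.6 and 20.4 CPM and did not pass the test, and each of the other 13, with keratins and collagens at or near 0, had means of at most 2.98 CPM. Whether these shifts have a part in the results on clock genes was not tested.

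Promoter windows from RefSeq, running from 250 bases before to 50 bases after an annotated start, were available for 8 of the 10 genes, as 10 windows in all. They were searched on both strands for the E-box CACGTG, the D-box TTANGTAA, the core ROR and REV-ERB element TAGGTCA and the cAMP response element TGACGTCA. An E-box lay in windows of Per1, Cry1 and Tef, and 2 D-boxes lay in that of Per3, while Cry2, Nr1d1, Nr1d2 and Dbp held none of the 4 motifs in these windows. The Nr1d2 window, listed on the minus strand, had 0 exact matches on that strand of chr14 in GRCm39. As the gene lies on the plus strand there, the window was not placed at it. Of all 32851 windows, 7.15% held the E-box, 2.32% the D-box, 2.61% the ROR and REV-ERB core and 1.79% the cAMP response element. The following 4 windows are shown because they carry the motifs through which the clock acts on its own genes. They were placed in GRCm39, the build of the count table, by exact match, are written 5′ to 3′ on the strand of the gene, and have the motif in capitals. The Per1 window is at chr11:68989525-68989824 on the plus strand with the E-box at position -166 from the start, the Cry1 window at chr10:85020869-85021168 on the minus strand with the E-box at -60, the Tef window at chr15:81686624-81686923 on the plus strand with the E-box at -127, and the Per3 window at chr4:151129073-151129372 on the minus strand with D-boxes at -205 and -158.
Per1: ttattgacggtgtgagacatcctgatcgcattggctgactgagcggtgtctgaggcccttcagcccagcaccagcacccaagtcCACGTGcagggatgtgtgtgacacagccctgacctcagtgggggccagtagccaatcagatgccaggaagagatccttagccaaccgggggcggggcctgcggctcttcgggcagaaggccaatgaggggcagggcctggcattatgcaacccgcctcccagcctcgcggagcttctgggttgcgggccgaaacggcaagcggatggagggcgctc
Cry1: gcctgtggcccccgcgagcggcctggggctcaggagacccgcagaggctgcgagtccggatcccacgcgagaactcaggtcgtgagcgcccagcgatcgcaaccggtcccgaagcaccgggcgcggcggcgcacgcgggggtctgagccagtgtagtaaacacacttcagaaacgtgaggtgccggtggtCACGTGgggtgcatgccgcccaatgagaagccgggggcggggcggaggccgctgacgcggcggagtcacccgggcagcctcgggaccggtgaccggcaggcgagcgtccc
Tef: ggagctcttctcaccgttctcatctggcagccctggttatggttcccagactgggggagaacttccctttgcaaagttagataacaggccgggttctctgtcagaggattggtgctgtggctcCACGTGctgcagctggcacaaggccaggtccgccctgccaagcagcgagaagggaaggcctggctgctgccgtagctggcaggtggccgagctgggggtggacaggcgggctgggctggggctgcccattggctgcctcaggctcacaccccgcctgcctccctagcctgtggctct
Per3: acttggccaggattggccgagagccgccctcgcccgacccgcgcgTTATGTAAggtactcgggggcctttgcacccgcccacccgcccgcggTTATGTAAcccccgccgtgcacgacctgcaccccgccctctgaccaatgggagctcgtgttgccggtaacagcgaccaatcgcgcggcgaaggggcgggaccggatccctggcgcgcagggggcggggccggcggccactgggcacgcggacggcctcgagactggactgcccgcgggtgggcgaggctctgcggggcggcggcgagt

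Per1 has a second window, which held none of the motifs, and Tef a second one with an E-box at -138. A match of letters describes the window and does not show that a factor binds there.

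The 10 genes were expressed at very different levels. Per kilobase of exon and with WT medium, Bhlhe40 stood far above the others, at 92.7 ± 4.4 CPM per kb in cDC1s and 241 ± 6.5 in cDC2s (SD, n = 3). Cry1 followed at 9.38 ± 0.40 and 13.5 ± 0.71 CPM per kb. In cDC1s the order then ran Per1 (5.39 ± 0.22), Nr1d2 (2.79 ± 0.34), Tef (2.13 ± 0.17) and Cry2 (1.62 ± 0.09), with no overlap between neighbours over the 3 samples. In cDC2s, Per1 (3.51 ± 0.32), Cry2 (3.25 ± 0.21) and Tef (3.13 ± 0.16) overlapped with their neighbours in this order, and Nr1d2 lay lower at 2.34 ± 0.10 CPM per kb. Dbp, Per2 and Per3 were at 0.0791 to 0.282 CPM per kb in both cell types, on 10 to 51 counts per sample with WT medium. Nr1d1, which encodes REV-ERBα, was close to undetected, with 0 to 9 counts in each of the 17 samples, so no fold change is given for it. These low genes thus rest on few reads, and only large changes in them could have been detected.

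**Figure D1:**
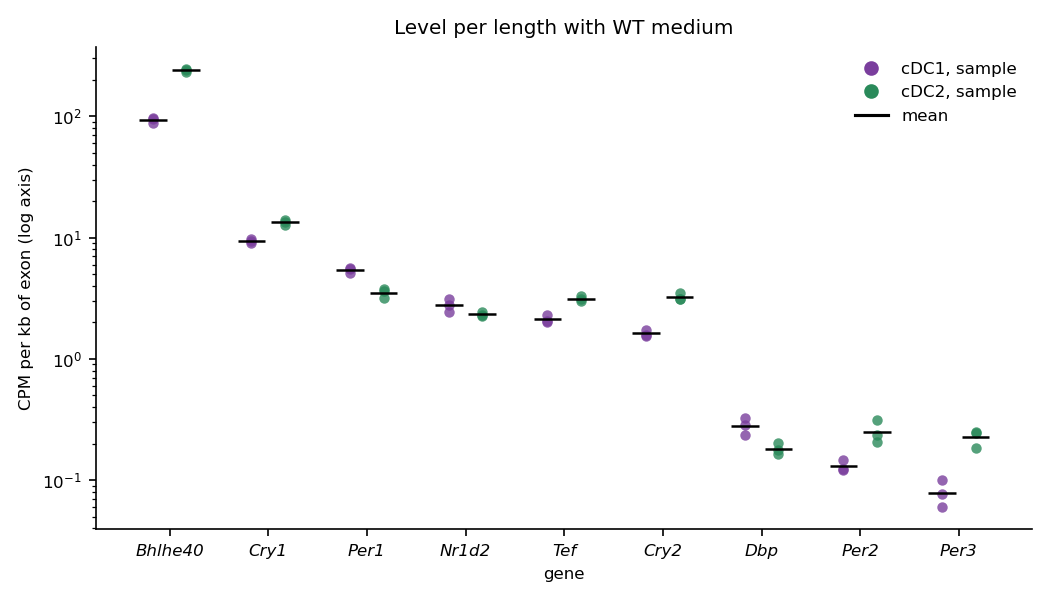
Level of 9 clock genes with WT medium in CPM per kb of exon on a log axis, with 1 point for each of 3 samples of cDC1s and of cDC2s and a line at the mean. Bhlhe40 lies highest (92.7 and 241 CPM per kb), and Dbp, Per2 and Per3 lie lowest. Nr1d1 is left out because of its 0 to 9 counts.

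The cell types differed in most of these genes. With WT medium, edgeR's quasi-likelihood test called 7 of the 10 genes different between cDC1s and cDC2s, where 46.2% of all 19082 genes tested were called. Shares over all genes include many genes with few reads. In cDC1s, 7848 of the 19513 genes tested had a mean log2 CPM of at least 3, among them Per1, Cry1, Cry2, Nr1d2, Tef and Bhlhe40. Per1 was called higher in cDC1s, beside 22.5% of all genes, and Per2, Per3, Cry1, Cry2, Tef and Bhlhe40 were called higher in cDC2s, beside 23.7%. Bhlhe40 had 610.3, 599.7 and 557.2 CPM in the 3 cDC1 samples and 1539, 1483 and 1563 CPM in the 3 cDC2 samples, a log2 difference (cDC1 minus cDC2) of -1.38 (SE 0.0628, adjusted p 3.405e-17). Cry2 had 14.8, 13.4 and 13.6 CPM in cDC1s and 26.8, 30.0 and 26.9 CPM in cDC2s, a log2 difference of -1.0 (SE 0.0835, adjusted p 2.805e-11). Per3 had the largest log2 difference of the 10, at -1.52 (SE 0.243, adjusted p 5.281e-06), but on 14 to 51 counts per sample. Cry1 and Tef were higher in cDC2s by less, with log2 differences of -0.52 (SE 0.0709, adjusted p 3.879e-07) and -0.56 (SE 0.0930, adjusted p 1.024e-05). Per2 had a log2 difference of -0.94 (SE 0.327, adjusted p 0.01923), on 16 to 36 counts, a call lost without WT replicate 1 or 3 of the cDC1s, without WT replicate 2 of the cDC2s and in limma (adjusted p 0.05843, 0.06178, 0.106 and 0.08414, the lowest over 23 alternatives being 0.007952). Per1, in contrast, had a log2 difference of 0.62 (SE 0.0838, adjusted p 3.176e-07). Dbp (0.63, adjusted p 0.1207) and Nr1d2 (0.25, adjusted p 0.05209) were not called, although Nr1d2 was called with the replicate number as a block (0.25, adjusted p 0.0169), and under 9 of 23 alternatives in all, with adjusted p from 0.01567 to 0.2694. The 2 cryptochromes, the partners of PER in the repressor complex, were thus both higher in cDC2s, whereas the period genes were divided.

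Per1, the period gene with the highest level, was higher with RIPK3 debris than with WT medium or BimS debris in every sample of both cell types. In cDC1s it had 39.4, 42.7 and 41.9 CPM with WT medium, 46.7, 45.8 and 53.1 CPM with BimS debris and 69.2, 68.6 and 65.3 CPM with RIPK3 debris. The 3 groups did not overlap. The comparison that chose Per1 used cDC2 samples, but the values of cDC1s were known as well when the genes were chosen. The log2 fold change of RIPK3 over BimS debris was 0.48 (SE 0.0622, adjusted p 3.561e-06), RIPK3 over WT medium 0.71 (SE 0.0629, adjusted p 3.261e-11) and BimS over WT medium 0.23 (SE 0.0639, adjusted p 0.01034). The first 2 remained called under each of the 15 alternatives tried for cDC1s, with log2 fold changes between 0.40 and 0.55 and between 0.59 and 0.74. The rise with BimS debris was lost without BimS replicate 3 (log2 0.16, adjusted p 0.1656), without WT replicate 1 (0.20, adjusted p 0.08384) and in limma on unscaled counts (0.19, adjusted p 0.3785), with adjusted p from 0.0009037 to 0.3785 over all 15.

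In cDC2s, Per1 had 24.1, 28.8 and 27.6 CPM with WT medium, 31.7, 31.6 and 31.4 CPM with BimS debris and 51.9 and 63.6 CPM with RIPK3 debris, again without overlap between the groups. The log2 fold change was 0.87 for RIPK3 over BimS debris, which chose the gene. It was 1.10 for RIPK3 over WT medium and 0.23 for BimS over WT medium, and since these use the same RIPK3 or BimS samples, they are given without a test and are no independent support. On the log2 scale the step from WT medium to BimS debris was 0.23 in cDC1s as well.

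**Figure D2:**
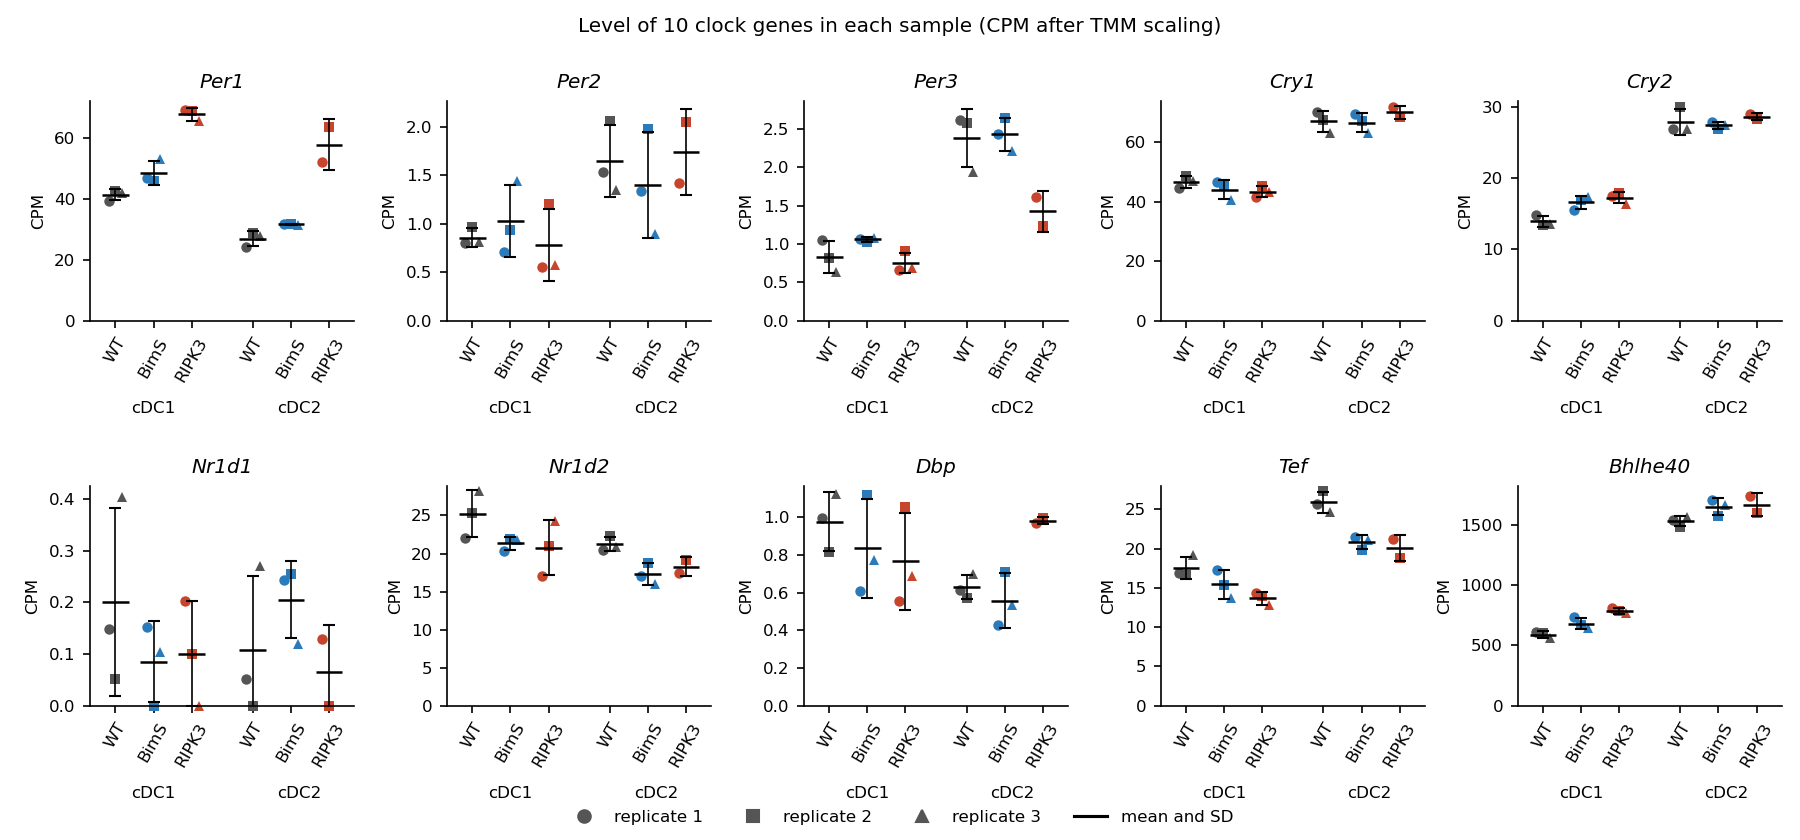
Level of the 10 clock genes in CPM, 1 panel per gene with its own axis from 0, in cDC1s and cDC2s with WT medium, BimS debris and RIPK3 debris. Each point is a sample, with its shape giving the replicate number, and bars give the mean and SD (n = 3, or 2 for cDC2s with RIPK3 debris). Per1 stands at 65.3 to 69.2 CPM in cDC1s with RIPK3 debris, above all other cDC1 samples.

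Bhlhe40 rose with debris in cDC1s. It had 610.3, 599.7 and 557.2 CPM with WT medium, 731.3, 667.9 and 641.7 CPM with BimS debris and 809.8, 782.6 and 764.5 CPM with RIPK3 debris, and the groups did not overlap. The log2 fold change of BimS over WT medium was 0.21 (SE 0.0494, adjusted p 0.002556), RIPK3 over WT medium 0.42 (SE 0.0494, adjusted p 3.158e-08) and RIPK3 over BimS debris 0.21 (SE 0.0493, adjusted p 0.008822). Without BimS replicate 3 the last of these was 0.17 (adjusted p 0.1158), and without BimS replicate 1 the first was 0.15 (adjusted p 0.05052). Limma on unscaled counts called neither, and each held under 13 of 15 alternatives, with adjusted p from 7.42e-06 to 0.6561 and from 2.615e-06 to 0.3855. In cDC2s, where it was already higher, Bhlhe40 had 1539, 1483 and 1563 CPM with WT medium, 1709, 1573 and 1667 with BimS debris and 1736 and 1598 with RIPK3 debris. The groups with debris lay just above WT medium, and the log2 fold changes of 0.11 (SE 0.0731, adjusted p 0.4886) and 0.12 (SE 0.0815, adjusted p 0.5148) were not called. With the replicate block both were (adjusted p 0.02309 and 0.0288, ranges over 14 alternatives 0.02309 to 0.9307 and 0.0288 to 0.8739), while in limma on unscaled counts, where the median of all genes moved to -0.17, the change with RIPK3 debris was -0.06.

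The cryptochromes behaved differently from each other. Cry2 had 14.8, 13.4 and 13.6 CPM in cDC1s with WT medium, 15.6, 16.9 and 17.4 CPM with BimS debris and 17.5, 17.97 and 16.4 CPM with RIPK3 debris. Both groups with debris lay above WT medium, with log2 fold changes of 0.26 (SE 0.0885, adjusted p 0.04967) and 0.31 (SE 0.0887, adjusted p 0.01024), and overlapped with each other (0.06, SE 0.0872, adjusted p 0.8497). The call with BimS debris stood at the threshold and held under 5 of 15 alternatives, and that with RIPK3 debris under 11 of 15, being lost in limma and without RIPK3 replicate 2, WT replicate 2 or WT replicate 3 (adjusted p 0.3808, 0.06203, 0.05298 and 0.05282, the lowest over the alternatives being 0.002475). The former was lost in DESeq2 (adjusted p 0.07434), in limma, without a filter and without any of the 3 WT samples, BimS replicates 2 and 3 or RIPK3 replicates 1 and 2, with adjusted p from 0.02044 to 0.4161 over its alternatives. In cDC2s, Cry2 lay between 26.8 and 30.0 CPM in all 8 samples, with log2 fold changes of -0.03 (SE 0.0933) for BimS and 0.03 (SE 0.105) for RIPK3 debris over WT medium, neither called. Cry1 kept to 40.5 to 48.5 CPM in cDC1s and 63.2 to 71.7 CPM in cDC2s. None of its tested comparisons between media was called. Their log2 fold changes ran from -0.10 (SE 0.0649, adjusted p 0.3338, RIPK3 over WT medium in cDC1s) to 0.06 (SE 0.0940, adjusted p 0.8445, the same in cDC2s).

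Tef, a PAR bZIP factor that acts through D-boxes, went the other way from Per1. It had 16.8, 16.7 and 19.2 CPM in cDC1s with WT medium, 17.3, 15.4 and 13.7 CPM with BimS debris and 14.3, 14.0 and 12.8 CPM with RIPK3 debris. All RIPK3 samples were below all WT samples, and Tef fell by 0.36 on the log2 scale (SE 0.0959, adjusted p 0.006045), a call that held in 14 of 15 alternatives and was lost without WT replicate 3 (-0.29, adjusted p 0.07091, the lowest over the alternatives being 0.0004703). BimS over WT medium gave -0.19 (SE 0.0939, adjusted p 0.2322) and RIPK3 over BimS debris -0.17 (SE 0.0975, adjusted p 0.4127), neither called. In cDC2s Tef had 25.7, 27.3 and 24.7 CPM with WT medium, 21.5, 19.8 and 21.1 CPM with BimS debris and 21.3 and 18.9 CPM with RIPK3 debris, so both groups with debris lay below WT medium. The fall with RIPK3 debris, by 0.38 on the log2 scale (SE 0.112, adjusted p 0.0465), passed narrowly and held in 4 of 14 alternatives, with adjusted p from 0.0001851 to 0.402. Of the 8 samples, only WT replicate 3 could be left out without losing it. The change with BimS debris, -0.32 (SE 0.0990, adjusted p 0.05843), missed the threshold and was called under 3 of 14 alternatives, among them the replicate block (-0.32, adjusted p 0.0002988, range over the alternatives 0.0002988 to 0.2472). Dbp, the paralog of Tef, had 11 to 25 counts in cDC1s and 7 to 17 in cDC2s, and none of its tested changes was called.

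Nr1d2, which encodes REV-ERBβ, was the REV-ERB gene that could be measured. It had 22.1, 25.3 and 28.3 CPM in cDC1s with WT medium, 20.3, 21.9 and 21.8 CPM with BimS debris and 17.1, 21.0 and 24.2 CPM with RIPK3 debris, with overlap between WT medium and RIPK3 debris. In cDC2s it had 20.5, 22.3 and 20.9 CPM, 17.0, 18.8 and 16.0 CPM and 17.4 and 19.2 CPM, with WT medium above both kinds of debris. The 4 log2 fold changes with debris over WT medium lay between -0.29 and -0.22 and were not called (adjusted p 0.07317 to 0.3489). All 4 were called lower with the replicate block. In cDC1s the blocked values were -0.24 with BimS debris (adjusted p 0.01037) and -0.28 with RIPK3 debris (adjusted p 0.001375), and in cDC2s they were -0.30 (adjusted p 0.00235) and -0.26 (adjusted p 0.03917). The first 2 were called under 5 of 15 alternatives and the last 2 under the block alone. Over all alternatives these adjusted p ranged from 0.01037 to 0.495, 0.0006513 to 0.299, 0.00235 to 0.3491 and 0.03917 to 0.733.

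Per2 and Per3 were low. Per2 had 10 to 28 counts per sample in cDC1s and 15 to 39 in cDC2s, and none of its tested changes between media was called. Per3 had 12 to 22 counts per sample in cDC1s, without a call. In cDC2s, Per3 had 2.62, 2.58 and 1.94 CPM with WT medium, 2.43, 2.64 and 2.21 CPM with BimS debris and 1.62 and 1.23 CPM with RIPK3 debris, the last on 25 and 21 counts. Both RIPK3 samples lay below the other 6. The log2 fold change over WT medium of -0.76 (SE 0.274, adjusted p 0.1193) was not called, and with the replicate block it was (-0.86, adjusted p 0.01615, range over 14 alternatives 0.01615 to 0.531), as in limma on unscaled counts (-0.90, adjusted p 0.04856).

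Counted by comparison, 3 of the 10 genes rose and 0 fell with BimS debris over WT medium in cDC1s (Per1, Cry2 and Bhlhe40), where 13.2% of the 19513 genes tested were called (7.31% higher, 5.89% lower). With RIPK3 debris over WT medium, 3 rose (the same genes) and 1 fell (Tef), beside 16.5% of all genes (8.34% higher, 8.19% lower). With RIPK3 over BimS debris, 2 rose (Per1 and Bhlhe40), beside 4.15% (1.94% higher, 2.21% lower). In cDC2s, Per1 is left out of the counts, because its BimS and RIPK3 samples there chose it. Of the 9 other genes, edgeR called 0 with BimS debris over WT medium, beside 7.01% of the 19239 genes tested (3.80% higher, 3.21% lower). At an unadjusted p under 0.05 there were 2 (Nr1d2 and Tef), DESeq2 and limma called 0, and the replicate block called 3 (Bhlhe40 higher, Nr1d2 and Tef lower), where 21.3% of all genes were called. With RIPK3 debris over WT medium in cDC2s, 1 of the 9 was called (Tef, lower), beside 7.21% of all genes (3.93% higher, 3.28% lower), against 4 with the block (Bhlhe40 higher, Per3, Nr1d2 and Tef lower), beside 21.4%. The median log2 fold change of the 10 genes, Nr1d1 included as fitted, was between -0.13 and 0.06 in these comparisons, against -0.02 to 0.00 for all genes.

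For RIPK3 over BimS debris in cDC2s, the comparison that chose Per1, edgeR called 0.379% of all genes. The log2 fold changes of the members were 0.87 for Per1, 0.78 for Dbp, 0.28 for Per2, 0.07 for Cry1 and Nr1d2, 0.05 for Cry2, 0.01 for Bhlhe40, -0.06 for Tef and -0.79 for Per3. The 2 groups did not overlap for Per1, Per3, Cry2 and Dbp, as for 26.8% of all genes. Dbp had 0.426, 0.712 and 0.537 CPM with BimS debris and 0.970 and 0.996 CPM with RIPK3 debris, on 7 to 17 counts. Among the 6 members with more than 100 counts in every sample, the groups were apart for Per1, with 31.4 to 31.7 against 51.9 and 63.6 CPM, and for Cry2, with 26.9 to 27.9 against 28.3 and 28.97 CPM.

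**Figure D3:**
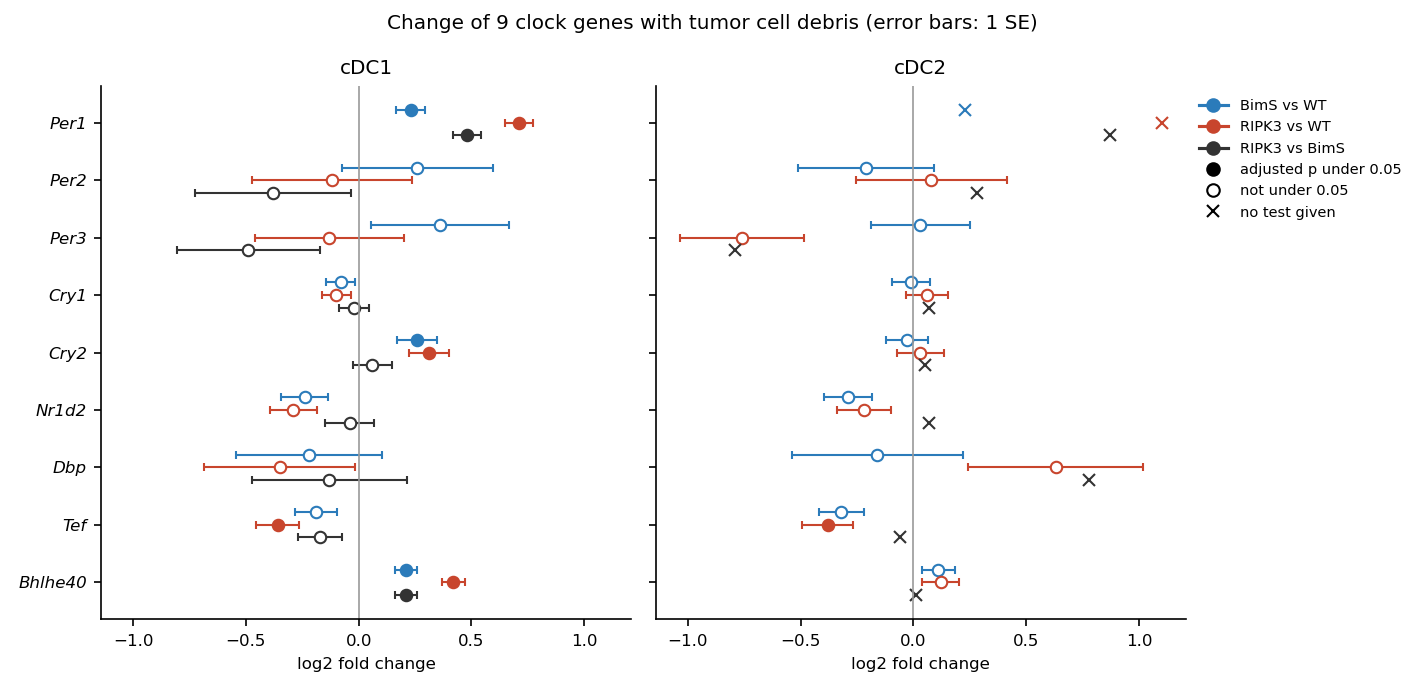
Log2 fold change of 9 clock genes between media in cDC1s and in cDC2s, with error bars of 1 SE. Filled circles passed an adjusted p of 0.05, open circles did not, and crosses are values given without a test, namely RIPK3 over BimS debris in cDC2s and all values of Per1 in cDC2s. Per1 lies to the right of 0 throughout (0.23 to 1.10), and Tef lies to the left (-0.38 to -0.06).

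Whether the cell types responded differently was tested as an interaction. Per1 is again left out, since the test would use the cDC2 samples that chose it. Its log2 difference (cDC1 minus cDC2) was -0.39 for RIPK3 debris and 0.00 for BimS debris over WT medium. For RIPK3 debris over WT medium, edgeR called 0 of the 9 other genes, beside 1.14% of all genes, and 2 had an unadjusted p under 0.05 (Cry2 and Bhlhe40). DESeq2 and limma also called 0. With the replicate block 1 was called, beside 2.35% of all genes. This was Bhlhe40, which rose more in cDC1s (log2 difference 0.29, SE 0.0926, adjusted p 0.1764 without the block, 0.31 and 0.01211 with it, range over 23 alternatives 0.01211 to 0.6463). For BimS debris over WT medium, 0 were called by edgeR, DESeq2 and limma, beside 0.87% of all genes, and Cry2 had an unadjusted p under 0.05 (log2 difference 0.28, SE 0.117, adjusted p 0.4497).

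Samples that shared a replicate number deviated together in several clock genes. The share of the within-group variance of log2 CPM that went with the replicate number was 78.5% in cDC1s and 87.1% in cDC2s for Nr1d2, and 84.9% and 90.6% for Bhlhe40. Over all genes with a mean log2 CPM of at least 3 the median share was 44.6% in cDC1s and 78.5% in cDC2s, with upper quartiles of 67.2% and 90.4%. Cry1 had 36.0% in cDC1s and 99.6% in cDC2s, and Per1 15.8% and 63.8%. Cry2 was low in both, at 2.69% and 14.5%, as was Tef at 17.9% and 24.4%. For Nr1d2 in cDC1s, replicate 1 was the lowest sample with each of the 3 media, and its within-group SD of 0.182 on the log2 scale was above the median of all genes of 0.0803. The labels do not say what the number stands for, and neither time of day nor date of an experiment is given. As cDC2s had 2 samples with RIPK3 debris, the deviations of these mirror each other by construction.

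**Figure D4:**
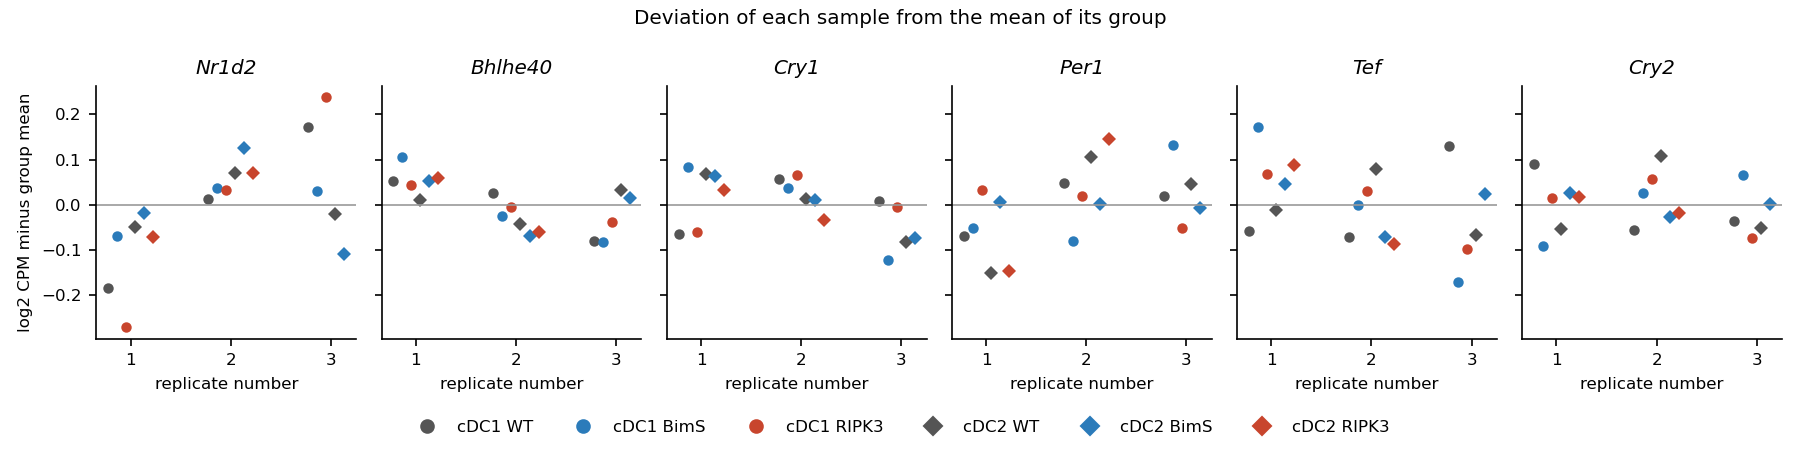
Log2 CPM of each sample minus the mean of its group, against the replicate number, for 6 clock genes with over 100 counts in every sample; circles are cDC1s, diamonds cDC2s, and colors the media. For Nr1d2 all points of replicate 1 lie below 0, and for Bhlhe40 all lie above 0, while Cry2 and Tef are scattered.

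Across the 9 cDC1 samples, log2 CPM of Per1 ran with that of Bhlhe40 (Pearson r = 0.87) and Cry2 (0.77) and against that of Tef (-0.82). Across the 8 cDC2 samples the strongest relations of Per1 were with Per3 (-0.89) and Dbp (0.75), both low genes, and with Tef (-0.69), while that with Bhlhe40 was 0.45. Nr1d2 and Bhlhe40 ran against each other in both (-0.74 and -0.89). The samples share media and replicate numbers, so these values describe the libraries only.

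The genes most like Per1 over the 17 samples, after removal of the mean of each cell type and among 7783 other genes with a mean log2 CPM of at least 3, were Fos (r = 0.951), Nr4a2 (0.942), Map9 (0.939), Zfp672 (0.935) and Phc2 (0.930). Fos encodes a subunit of the AP-1 transcription factor and Nr4a2 an orphan nuclear receptor, both early-response genes. Mean levels with WT medium, BimS and RIPK3 debris were 115.5, 117.0 and 156.6 CPM in cDC1s and 74.8, 80.0 and 121.9 CPM in cDC2s for Fos. Map9, a microtubule-associated protein, had 12.5, 17.8 and 32.8 CPM in cDC1s and 11.4, 16.4 and 31.9 CPM in cDC2s. Phc2, a Polycomb component, had 320.3, 406.9 and 541.0 CPM in cDC1s and 65.8, 78.4 and 121.4 CPM in cDC2s. These genes were picked for their likeness to Per1 in all samples, so no test of that likeness is given.

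Beyond the 10 members, a list of 21 other clock genes held the activators of the loop, the ROR receptors, the kinases and ubiquitin ligases that set the stability of PER and CRY, and outputs. In cDC1s, 18 of the 21 were tested. With BimS debris over WT medium, 1 rose (Cipc, an inhibitor of CLOCK, log2 0.24, adjusted p 0.02851) and 2 fell (Timeless, -0.59, adjusted p 1.415e-06, and Nfil3, which competes with DBP and TEF at D-boxes, -0.17, adjusted p 0.005996), beside 7.31% higher and 5.89% lower among all genes. With RIPK3 debris over WT medium, 3 rose and 1 fell, beside 8.34% and 8.19%. Bmal2 (1.03, adjusted p 0.0001415), Bmal1 (0.27, adjusted p 0.02394) and the ubiquitin ligase subunit Fbxw11 (0.15, adjusted p 0.03945) rose, and Timeless, which in mammals mainly serves DNA replication, fell (-0.70, adjusted p 5.787e-08). With RIPK3 over BimS debris, Bmal2 rose (0.75, adjusted p 0.01615), where 1.94% of all genes were called higher. Under the replicate block, 2 rose and 3 fell with BimS debris and 4 rose and 2 fell with RIPK3 debris over WT medium, where 17.9% and 21.0% of all genes were called. Bmal1, the central activator, had 16.2 ± 1.32 CPM with WT medium, 18.4 ± 0.586 with BimS and 19.6 ± 1.27 with RIPK3 debris in cDC1s (SD, n = 3).

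In cDC2s, 17 of the 21 were tested. Timeless fell with BimS (-0.75, adjusted p 0.001066) and with RIPK3 debris (-0.54, adjusted p 0.03488) over WT medium, and Csnk1e, a kinase of PER proteins, rose with RIPK3 debris (0.36, adjusted p 0.01353), at 101.6 ± 6.07, 106.8 ± 0.826 and 131.2 ± 4.64 CPM (n = 3, 3 and 2). No other gene of the list was called in these 2 comparisons, where 7.01% and 7.21% of all genes were. The block called 5 with BimS debris and 2 with RIPK3 debris, where 21.3% and 21.4% of all genes were. Clock itself had no call between media without the block, at 54.3 to 56.2 CPM in cDC1s and 44.2 to 47.2 CPM in cDC2s on average, while the block called it lower with RIPK3 than with BimS debris in cDC2s (-0.23, adjusted p 0.01064, against -0.09 and 0.9369 without it). Between the cell types with WT medium, 3 of 16 were called higher in cDC1s and 9 higher in cDC2s, beside 22.5% and 23.7% of all genes. Hlf, a paralog of Tef, had 0 to 1 count per sample in cDC1s and 3 to 7 in cDC2s, so its call has no fold change. The largest others were the Bmal1 activator Rora (-2.61, adjusted p 3.537e-16), Ciart (1.36, adjusted p 2.335e-07) and Timeless (1.34, adjusted p 2.656e-11). Rora had 2.77 ± 0.339 CPM in cDC1s and 16.9 ± 1.51 CPM in cDC2s with WT medium. Bmal2 was the one gene of the list with a called interaction for RIPK3 debris over WT medium (1.22, SE 0.291, adjusted p 0.02775), rising in cDC1s and with 4.22 ± 0.661 and 3.71 ± 0.606 CPM in cDC2s.

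A list of 19 genes linked to CREB was read in the same way, since Per1 is one of its targets. The lists were chosen with earlier results of these data known. This one includes Fos and Nr4a2, which were matched to Per1 over the same samples, so their values are not independent of that match. Both are among the genes that rose in each comparison of RIPK3 debris below, so those counts are not independent of it either. In cDC1s with RIPK3 over BimS debris, 9 rose and 1 fell, beside 1.94% higher and 2.21% lower among all genes, led by Areg (0.93, adjusted p 0.005473), Atf3 (0.59, adjusted p 3.305e-09), Fos (0.42, adjusted p 2.005e-06) and Nr4a2 (0.34, adjusted p 0.0009587), while Nr4a3 fell (-0.31, adjusted p 6.627e-05). With RIPK3 debris over WT medium, 10 rose and 2 fell in cDC1s (8.34% and 8.19% of all genes), with Areg (1.66), Atf3 (1.15), Nr4a3 (-0.98) and Crtc1 (0.50) in front. With BimS debris, 5 rose and 3 fell (7.31% and 5.89% of all genes). In cDC2s, 9 rose and 0 fell with RIPK3 debris over WT medium (3.93% and 3.28% of all genes), led by Areg (1.36, adjusted p 3.113e-07), Gem (1.02, adjusted p 1.572e-07), Nr4a2 (0.79, adjusted p 4.324e-06) and Sik1 (0.73, adjusted p 1.138e-05), and 6 rose and 1 fell with BimS debris (3.80% and 3.21%). Under the replicate block, 9 rose and 2 fell with RIPK3 debris in cDC2s, the latter being Nr4a3 (-0.36, adjusted p 2.643e-15, against -0.30 and 0.1373 without it) and Rgs2 (-0.15, adjusted p 0.01226), and 10 rose and 2 fell with BimS debris. In cDC1s the block gave 9 and 2 for RIPK3 over BimS debris, 11 and 3 for RIPK3 debris and 6 and 5 for BimS debris over WT medium. The blocked shares of all genes called were 21.4% and 21.3% in these comparisons of cDC2s and 8.87%, 21.0% and 17.9% in those of cDC1s. The median log2 fold change of the list was 0.11 for RIPK3 over BimS debris in cDC1s and 0.14 for RIPK3 debris over WT medium in cDC2s, against 0.00 and -0.02 for all genes.

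Of 12 glucocorticoid-responsive genes, 11 were tested. In cDC1s with RIPK3 over BimS debris, 4 rose and 1 fell, beside 1.94% and 2.21% of all genes. Ddit4, an inhibitor of mTORC1, rose by 0.82 (adjusted p 4.271e-06), Errfi1 by 0.60 (adjusted p 0.0003564) and Tsc22d3, which encodes GILZ, by 0.57 (adjusted p 1.423e-07), and the metallothionein gene Mt2 fell (-1.03, adjusted p 0.01499). With RIPK3 debris over WT medium, 5 rose and 0 fell in cDC1s (8.34% and 8.19% of all genes), and 3 rose and 0 fell in cDC2s (3.93% and 3.28%). With BimS debris over WT medium, 4 rose and 1 fell in cDC1s (7.31% and 5.89%), the latter being Tsc22d3. Fitted with the block, 5 rose and 0 fell in cDC2s with RIPK3 debris and 6 rose and 1 fell with BimS debris over WT medium, against 3 and 0 in each without it, where 21.4% and 21.3% of all genes were called with the block and 7.21% and 7.01% without it. The counts in cDC1s were the same with the block. Tsc22d3 had 55.4 ± 2.89 CPM with WT medium, 39.1 ± 0.439 with BimS debris and 58.1 ± 3.29 with RIPK3 debris in cDC1s, so its difference between the kinds of debris came with a fall under BimS debris (-0.50, adjusted p 8.189e-08). The kinase gene Sgk1, in contrast, stood at 105.8 ± 1.65, 174.4 ± 10.1 and 223.4 ± 7.74 CPM in cDC1s and at 23.2 ± 1.76, 90.5 ± 4.802 and 100.5 ± 0.788 CPM in cDC2s. Fkbp5 of the same list had 13.7 ± 1.36 CPM with BimS and 13.7 ± 0.890 with RIPK3 debris in cDC1s. In cDC2s it had 18.5 ± 0.912 and 15.9 ± 1.28 CPM. Zbtb16, on 1 to 13 counts, had means of 0.131 and 0.0864 CPM in cDC1s and 0.601 and 0.373 in cDC2s. Dusp1 is in both lists and is counted in each. All these list genes kept their direction where called when the counts were scaled by RLE, tested by DESeq2 or left unscaled in limma.

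**Figure D5:**
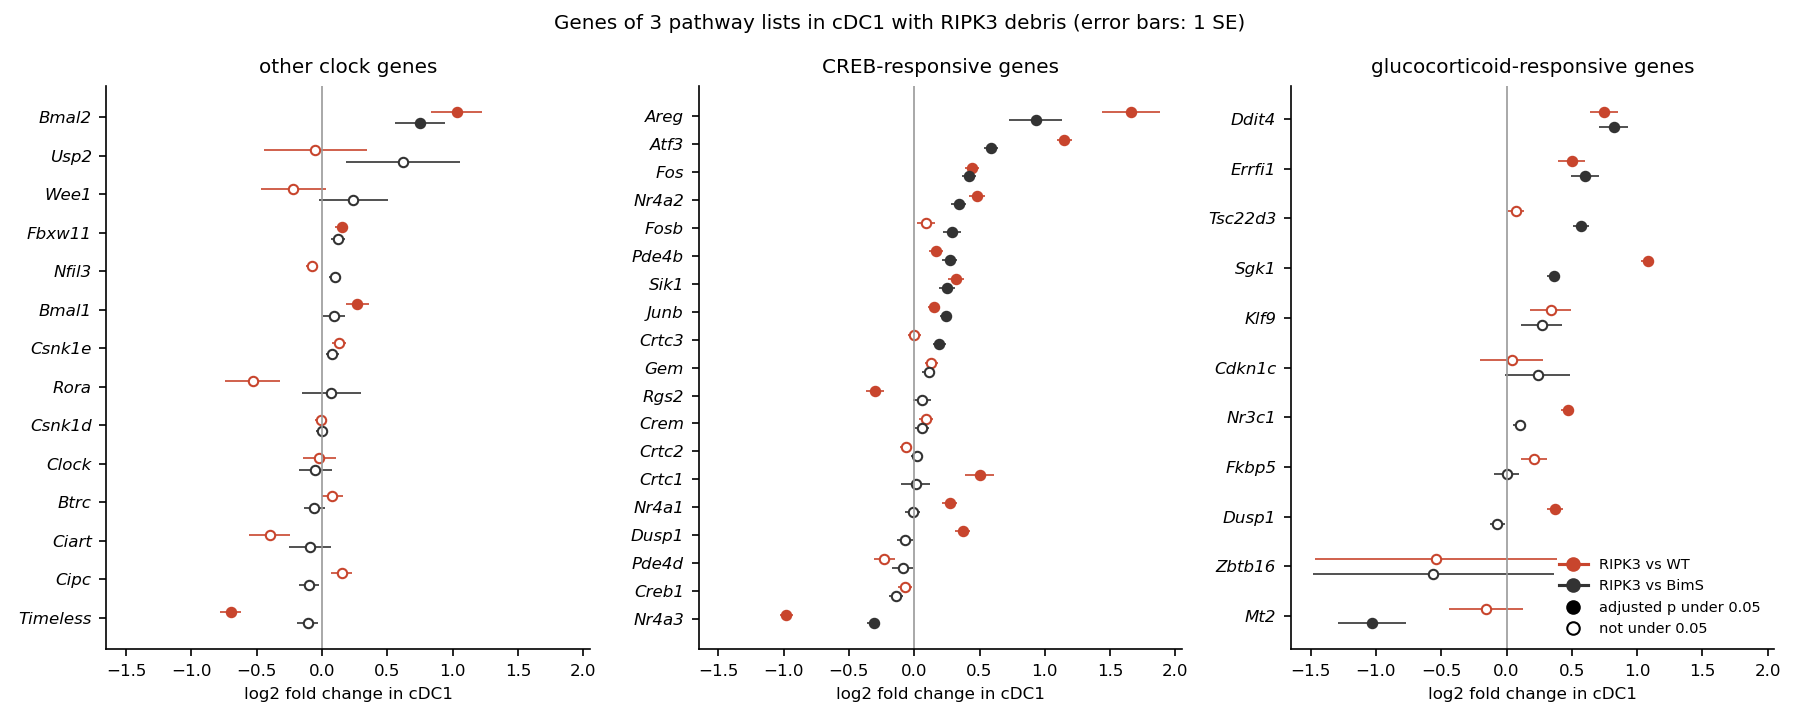
Log2 fold change in cDC1s of RIPK3 debris over WT medium and over BimS debris for other clock genes, CREB-responsive genes and glucocorticoid-responsive genes, with error bars of 1 SE and filled circles for an adjusted p under 0.05. Genes that stay at or under 3 counts in both groups are left out. Areg, Atf3 and Sgk1 lie at 1.08 to 1.66 over WT medium.

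Several members share exons with a gene on the opposite strand, and how the counting treated strand is not given in the sources used here, so reads of the 2 genes cannot be told apart. Thra covers 52.3% of the exon bases of Nr1d1, Sphk2 15.5% of those of Dbp, the long noncoding RNA 0610040F04Rik 6.96% of those of Bhlhe40, Gm17597 2.34% of those of Tef and Uts2 1.47% of those of Per3. Of these partners, Sphk2 was at 42.4 to 57.4 CPM, far above Dbp, and the others were at 2.38 or less. Per1, Per2, Cry1, Cry2 and Nr1d2 share no exon bases with another gene of the table.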

How the data were processed

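Reads had been trimmed (SeqPurge), aligned to GRCm39 (STAR 2.7.10a) and summed over genes (gensum) by the authors. The deposited counts are whole reads per gene without normalization and were used as they are. A second deposited table, of log2 values made from the same counts, was not used. Of 31239 lines, 148 without a gene identifier, holding 0.0258% to 0.0366% of the counts of a sample, were left out. Symbols, coordinates and exon lengths are from GENCODE M39, matched for 30854 of 31091 identifiers.

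Tests were run in R 4.3.3 with edgeR 4.0.16 (robust quasi-likelihood, TMM), keeping a gene if 50% or more of the samples fitted had a read on it, with Benjamini-Hochberg adjustment over all genes and a threshold of 0.05. The 9 cDC1 and 8 cDC2 samples were fitted separately for comparisons of media, and all 17 together for cell types and interactions. An SE is the absolute log2 fold change over the root of F. Log2 CPM used a prior count of 2. The scripts were tested on simulated data.

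The same replicate number pairs samples within a cell type: after removal of group means, 16 of 16 such pairs correlated above 0.1 (median 0.355, lowest 0.148), against 4 of 32 with different numbers. Across cell types it was 19 of 24 pairs (median 0.21), against 5 of 48, so that not every pair passed. This comes from the data, as the labels name no shared animal or day. Both cell types were sorted from cultured CD11c+ cells, so samples of the same medium and number may share a culture, which the labels do not say. The tests without the block treat all samples as independent. P-values measure the spread between these samples.

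Alternatives were DESeq2 1.42.0, RLE size factors, filterByExpr, no filter, limma 3.58.1 on unscaled log2(count + 1) as in the study's methods, the replicate number as a block, and leaving out each sample. The members were named in each comparison, except for Nr1d1, which had too few counts. Of the pathway lists, called genes were named, at most the 4 with the largest change per comparison and list. A few other list genes were given by their levels. The 5 genes most like Per1 were named by r. The members and lists were chosen with earlier results of these data known. Fold changes are not given where counts were near 0 (Nr1d1). A gene of the list of other clock genes is not reported here.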

Additional observations from a re-analysis of the deposited data

Results flagged for a closer look

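Genes of the pathway lists that responded differently in cDC1s and cDC2s, by edgeR's test of the interaction, are given here as the log2 difference between the cell types (cDC1 minus cDC2). For BimS debris over WT medium these were Atf3 (0.85), Nr4a1 (0.64), Nr4a3 (-0.60) and Gem (-0.41) among the CREB-responsive genes and Sgk1 (-1.24) and Ddit4 (-0.72) among the glucocorticoid-responsive genes. For RIPK3 debris over WT medium they were Bmal2 (1.22) among the other clock genes, Gem (-0.89), Nr4a3 (-0.69), Atf3 (0.67) and Sik1 (-0.42) among the CREB-responsive genes and Sgk1 (-1.04). Sgk1 went from 23.2 to 90.5 CPM with BimS debris in cDC2s and from 105.8 to 174.4 CPM in cDC1s.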

How the results depend on the processing

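Leaving out the values of Per1 that use the cDC2 samples that chose it, 9 of 17 calls held under every alternative run, and 8 were lost under at least 1. The counts below include Per1, whose calls in cDC2s and in the interactions are no independent support. No called value changed sign, and 60 sign changes among 1551 values were all in values without a call. With the replicate block, 4 of the 10 genes were called for BimS debris over WT medium in cDC2s (0 without it), 5 for RIPK3 debris over WT medium in cDC2s (2 without it) and 2 for the interaction with RIPK3 debris (0 without it). The block also called Nr1d2 for both kinds of debris in cDC1s and between the cell types, and it changed no other call of the 10 genes. Limma on unscaled counts called 0 in place of 3 with BimS debris over WT medium and 1 in place of 2 with RIPK3 over BimS debris in cDC1s, and DESeq2 called 2 in place of 3 in the former, losing Cry2. For RIPK3 debris over WT medium in cDC2s, DESeq2, RLE size factors and no filter each called 1 in place of 2, while limma on unscaled counts called 3. The filter filterByExpr called 1 in place of 0 with BimS debris over WT medium in cDC2s. The cause of these shifts was not tested.

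Without each sample in turn, the count ranged from 1 to 4 for BimS debris over WT medium in cDC1s (1 without BimS replicate 3), from 2 to 5 for RIPK3 debris over WT medium (2 without WT replicate 3) and from 1 to 2 for RIPK3 over BimS debris (1 without BimS replicate 3). In cDC2s it ranged from 0 to 1 for BimS debris (1 without WT replicate 3) and from 1 to 2 for RIPK3 debris over WT medium, where only leaving out WT replicate 3 kept 2. For the interaction with RIPK3 debris it ranged from 0 to 1 (1 without RIPK3 replicate 1 of the cDC2s).

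The number of calls over all genes moved by over 1.5 times in several comparisons. With the replicate block it went from 810 to 1730 for RIPK3 over BimS debris in cDC1s, and in cDC2s from 1349 to 4103 for BimS debris, from 1387 to 4126 for RIPK3 debris and from 73 to 2755 between them. Limma on unscaled counts gave 1510 in place of 2576 for BimS debris over WT medium and 403 in place of 810 for RIPK3 over BimS debris in cDC1s. For RIPK3 over BimS debris in cDC2s, DESeq2 called 141, filterByExpr 46, limma 148 and no filter 300 in place of 73, and leaving out a sample gave 0 (without RIPK3 replicate 2) to 214. Leaving out 1 sample also took the count from 810 to 489 for RIPK3 over BimS debris in cDC1s (BimS replicate 3). In cDC2s it took it from 1349 to 896, 878 or 783 for BimS debris (BimS replicates 1 and 2, WT replicate 2) and from 1387 to 658, 622 or 916 for RIPK3 debris over WT medium (RIPK3 replicates 1 and 2, WT replicate 2). For the interactions it fell to 104, 100 or 93 with BimS (cDC1 BimS replicates 1 and 3, cDC1 WT replicate 1) and to 111 with RIPK3 debris (cDC2 RIPK3 replicate 2). For the interactions, the block called 443 in place of 166 (BimS) and 449 in place of 217 (RIPK3), limma 67 and 109, and no filter 315 and 371, with 261 by DESeq2 for BimS. Limma on unscaled counts moved the median of all genes to between -0.17 and 0.16. At the depth of these libraries, Per2, Per3, Dbp and Nr1d1 had 52 counts or fewer in every sample, which limits what could be detected in them.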
